A study of Homo sapiens with 38 samples.

Results

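The RNA of large extracellular vesicles (lEV) shed by KG1a cells was compared with the RNA of KG1a cells. KG1a is an established human acute myeloid leukaemia line of a primitive, CD34-bearing type. The comparison used 7 of the 38 libraries of the series: 3 libraries of total RNA from KG1a lEV and 4 libraries of total RNA from KG1a cells, taken by their labels and not by any measured value. All 7 come from unmodified (WT) cells and are small RNA sequencing libraries, in which adaptors are ligated to RNA ends and the products are size-selected on a gel. The donor cells of the lEV were kept in RPMI-1640 without fetal bovine serum (FBS) for 2 days before collection, whereas the cells that gave the cell RNA grew with 10% FBS. Source and culture therefore differed together, and the parts of the 2 in any difference cannot be told apart. The labels do not say that replicates came from separate cultures, so p-values measure the spread between these libraries, which may be technical. The other line of the series, HL60, enters where its lEV (3 libraries) and cells (3 libraries) of total RNA are set beside KG1a.

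Cells release membrane-bound vesicles that carry a part of their RNA. Large vesicles bud from the plasma membrane or form as larger cell fragments, and their RNA is mostly short and non-coding. Transfer RNA (tRNA) brings amino acids to the ribosome, ribosomal RNA (rRNA) forms the ribosome, and microRNA (miRNA) is cut from hairpin precursors and lowers the output of matching mRNAs. Y RNAs are short cytoplasmic RNAs bound by the Ro60 and La proteins, and 7SL RNA is the scaffold of the signal recognition particle, which brings ribosomes to the endoplasmic reticulum. Small nuclear RNA (snRNA) works in the spliceosome, small nucleolar RNA (snoRNA) guides rRNA modification in the nucleolus, and scaRNA does the same for snRNA in Cajal bodies.

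Sequences of some of the small RNAs and loci named below are given first. The Y RNA genes RNY1 and RNY4 lie close together on chromosome 7 and were both higher in lEV. Capitals mark the 11 bases that their transcripts share at the 5′ end (GENCODE 29, GRCh38, 5′ to 3′; RNY1 at chr7:148987136-148987248 on the minus strand, RNY4 at chr7:148963315-148963410 on the plus strand).
RNY1: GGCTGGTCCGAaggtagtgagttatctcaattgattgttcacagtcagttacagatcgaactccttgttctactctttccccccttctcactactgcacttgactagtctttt
RNY4: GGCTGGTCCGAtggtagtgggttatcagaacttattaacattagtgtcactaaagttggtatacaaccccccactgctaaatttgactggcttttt

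The U4 snRNA genes were lower in lEV. Capitals mark a match to ATTTTG with up to 2 further T, the form of the Sm site on which Sm proteins assemble (RNU4-1 at chr12:120293097-120293237 and RNU4-2 at chr12:120291763-120291903, both on the minus strand). The motif was found on the transcribed strand of 12.3% of the 1900 snRNA transcripts of GENCODE 29 and on the opposite strand of 6.11%. RNU4-1 and RNU4-2 differ at 4 of 141 positions, so short reads can match both and their counts are uncertain between the pair.
RNU4-1: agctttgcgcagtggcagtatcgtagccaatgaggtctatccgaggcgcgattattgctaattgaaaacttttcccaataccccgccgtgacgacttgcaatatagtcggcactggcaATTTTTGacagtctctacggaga
RNU4-2: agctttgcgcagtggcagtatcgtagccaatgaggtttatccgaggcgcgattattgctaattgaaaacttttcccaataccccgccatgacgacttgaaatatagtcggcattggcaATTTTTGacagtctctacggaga

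Most miRNA counts lay in RNAcentral entries, which the references at hand do not name, so mature sequences are shown only for miRNA genes with a symbol and for the miRNAs inside MIR17HG and VMP1, which were among the loci lower in lEV. Levels of these mature miRNAs were not available by name, so the counts of the genes and loci do not show whether they changed. Of 16 features on the miR-17-92 family list only the host MIR17HG was tested, and 13 had no count in the 7 libraries. Capitals mark the seed, bases 2 to 8 (RefSeq, GRCh38.p14). Within MIR17HG, hsa-miR-17-5p and hsa-miR-20a-5p share the seed AAAGUGC, and hsa-miR-19a-3p and hsa-miR-19b-3p share GUGCAAA.
hsa-miR-17-5p: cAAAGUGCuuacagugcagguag
hsa-miR-20a-5p: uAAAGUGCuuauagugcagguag
hsa-miR-18a-5p: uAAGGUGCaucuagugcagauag
hsa-miR-19a-3p: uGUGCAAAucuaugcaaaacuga
hsa-miR-19b-3p: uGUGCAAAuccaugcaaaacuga
hsa-miR-92a-3p: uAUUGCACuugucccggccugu
hsa-miR-21-5p: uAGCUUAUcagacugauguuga
hsa-miR-15b-5p: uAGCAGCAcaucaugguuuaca
hsa-miR-4420: gUCACUGAugucuguagcugag
hsa-miR-1226-3p: uCACCAGCccuguguucccuag
hsa-miR-7977: uUCCCAGCcaacgcacca

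The lEV libraries held 12635848, 10780155 and 9808448 counts, and the cell libraries held 13799469, 12166418, 10611842 and 11911376. Between 22429 and 23289 features had a count in lEV libraries, against 25094 to 27120 in cell libraries. Across the tested features, log2(CPM + 1) correlated at 0.954 to 0.978 between lEV libraries, at 0.957 to 0.986 between cell libraries and at 0.823 to 0.862 between lEV and cell libraries. These values describe the libraries, since features are not independent replicates. Of all counts in the 7 libraries, 90.3% fell on features without a gene symbol. CD34, which marks haematopoietic progenitors, was counted in every library. The neutrophil granule genes summed to at most 0.28 CPM (counts in 1e+06 of the library total) in lEV and at most 0.16 CPM in cells. SPN, also on the primitive haematopoietic list, was counted in every library too, but was not particular to KG1a. In HL60 it had 2.01 to 5.77 CPM in lEV and 2.95 to 4.96 CPM in cells.

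Of 7780 features tested with edgeR, 4067 differed between lEV and cells at an adjusted p under 0.05, which is 52.3%. They split into 1851 higher in lEV (23.8%) and 2216 lower in lEV (28.5%), and the CPM values of the groups did not overlap for 51.8%. The median log2 fold change of all tested features was -0.01. Counts of each class or list below are read against these shares. Over all features, 3422 passed about 0.84 CPM in every lEV library and in 3 or more cell libraries. Of these 813 were higher and 789 lower, with a median of 0.15. Counts of members that passed in both groups are read against these values. Counts are relative within a library, so fewer copies of an RNA and more of all other RNA cannot be told apart.

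The makeup of lEV RNA differed from that of cell RNA in nearly every large class. Transfer RNA took the largest share of lEV counts, with 36.7%, 44.2% and 30.8% in lEV libraries, against 7.38%, 9.30%, 10.9% and 12.3% in cell libraries. Ribosomal RNA took 23.3%, 18.2% and 16.1% in lEV, against 13.3%, 8.87%, 10.8% and 7.99% in cells. Precursor miRNA entries held 20.8%, 13.3% and 15.99% of lEV counts, against 46.6%, 47.9%, 44.6% and 45.9% of cell counts. In each of these 3 classes the groups did not overlap. The means were 37.2 ± 6.73% in lEV and 9.99 ± 2.14% in cells for tRNA, 19.2 ± 3.73% and 10.3 ± 2.36% for rRNA, and 16.7 ± 3.81% and 46.2 ± 1.38% for precursor miRNA, lEV first (SD, n = 3 lEV and 4 cell libraries). Each difference reached p = 0.0286 in a two-sided exact permutation test, the smallest that 3 against 4 libraries allow, and 0.0442 after Benjamini-Hochberg adjustment over 17 classes. The rRNA direction depended on the total used. Ensembl rRNA features held 10.7 ± 2.48% of all lEV counts and 6.33 ± 1.78% of all cell counts. These groups overlapped, with lEV replicate 3 (8.42%) below cell replicate 1 (8.49%). Of the counts on Ensembl features alone, the mean rRNA share was 7.47 points lower in lEV.

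**Figure D1:**
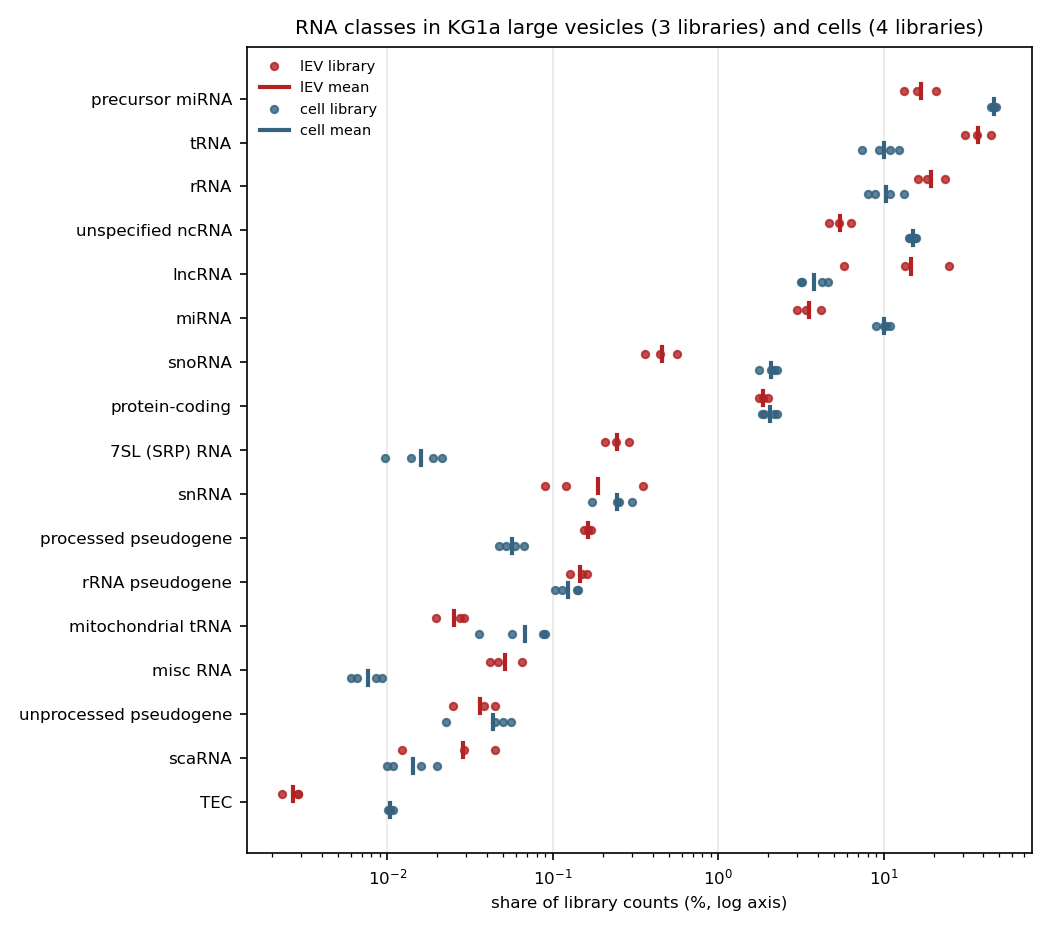
Share of library counts in each RNA class (per cent, log axis) in 3 KG1a lEV libraries (red, upper of each pair) and 4 KG1a cell libraries (blue), with a vertical bar at each mean. The tRNA points of lEV (30.8% to 44.2%) lie above all cell points (7.38% to 12.3%), and the 7SL points of lEV lie furthest from those of cells in ratio.

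Smaller classes differed too. The share of 7SL RNA was 0.245 ± 0.0407% in lEV and 0.0160 ± 0.00531% in cells, a 15.4-fold ratio of means. The misc_RNA class, which holds the Y RNAs, took 0.0512 ± 0.0122% in lEV and 0.00759 ± 0.00157% in cells. Processed pseudogenes took 0.163 ± 0.00833% in lEV and 0.0563 ± 0.00857% in cells. Mature miRNA entries took 3.52 ± 0.590% in lEV and 10.1 ± 0.787% in cells, and entries of unspecified ncRNA took 5.45 ± 0.842% in lEV and 14.9 ± 0.719% in cells. The snoRNA share was 0.456 ± 0.104% in lEV and 2.07 ± 0.223% in cells. All 6 reached the same p of 0.0286 and adjusted p of 0.0442 in the exact permutation test (n = 3 and 4), as did TEC, a GENCODE class of loci that await experimental evidence, at 0.00270 ± 0.000336% in lEV and 0.0104 ± 0.000282% in cells.

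The shares of protein-coding genes (1.86 ± 0.116% in lEV and 2.05 ± 0.215% in cells), snRNA (0.187 ± 0.143% in lEV and 0.242 ± 0.0525% in cells), scaRNA, rRNA pseudogenes, unprocessed pseudogenes and mitochondrial tRNA did not pass the test. Their adjusted p-values in the exact permutation test (n = 3 and 4) ran from 0.0810 to 0.486. With tRNA left out of the totals, the protein-coding share was 0.711 points higher in lEV.

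The lncRNA share was set by 1 entry. It was 5.75%, 13.5% and 24.7% in lEV, against 4.57%, 3.15%, 4.25% and 3.19% in cells (adjusted p = 0.0442 in the exact permutation test). The entry ENSG00000286171.1, which has no symbol in GENCODE 29, held 4.27%, 12.1% and 23.2% of lEV counts, against 3.85%, 2.15%, 3.13% and 1.93% of cell counts. Its log2 fold change was 2.10 ± 0.42 (SE), with an edgeR adjusted p of 0.00058. The 3 lEV libraries differed widely among themselves for it, and replicate 1 lay close to the highest cell library. All other lncRNA features together held 1.46 ± 0.0606% of lEV counts and 1.03 ± 0.230% of cell counts. Without lEV replicate 3 the difference in lncRNA share was 5.84 points, against 10.9 points with it.

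In tRNA, the rise in share came from part of the entries. Of 456 tested tRNA entries (558 in the table), 155 were higher in lEV and 119 lower, with a median log2 fold change of 0.09, which was -0.01 when all 6 groups of total RNA were fitted together. Among the third with the highest mean CPM, 73 of 152 were higher and 26 lower, with a median of 0.84. The most abundant tRNA entry had 23141, 77774 and 32843 CPM in lEV, against 1529, 906, 1581 and 639 CPM in cells, a log2 fold change of 5.18 ± 0.47. The next had 37692, 55194 and 20287 CPM in lEV, against 1829, 1055, 1754 and 719 CPM in cells, a log2 fold change of 4.73 ± 0.43. Both had an edgeR adjusted p of 1.3e-06, and both were highest in lEV replicate 2. Together they made up 8.23 ± 4.40% of lEV counts and 0.250 ± 0.1005% of cell counts. The 10 most abundant tRNA entries made up 20.1 ± 4.64% of lEV counts and 2.32 ± 0.152% of cell counts, and the remaining tRNA entries 17.1 ± 2.93% of lEV counts and 7.67 ± 2.04% of cell counts. Near-identical tRNA genes share reads, and the 245 tRNA entries with a mean of at least 50 CPM formed 194 groups with distinct counts, where a group holds entries with log2 counts no more than 0.2 apart in each of the 7 libraries.

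**Figure D2:**
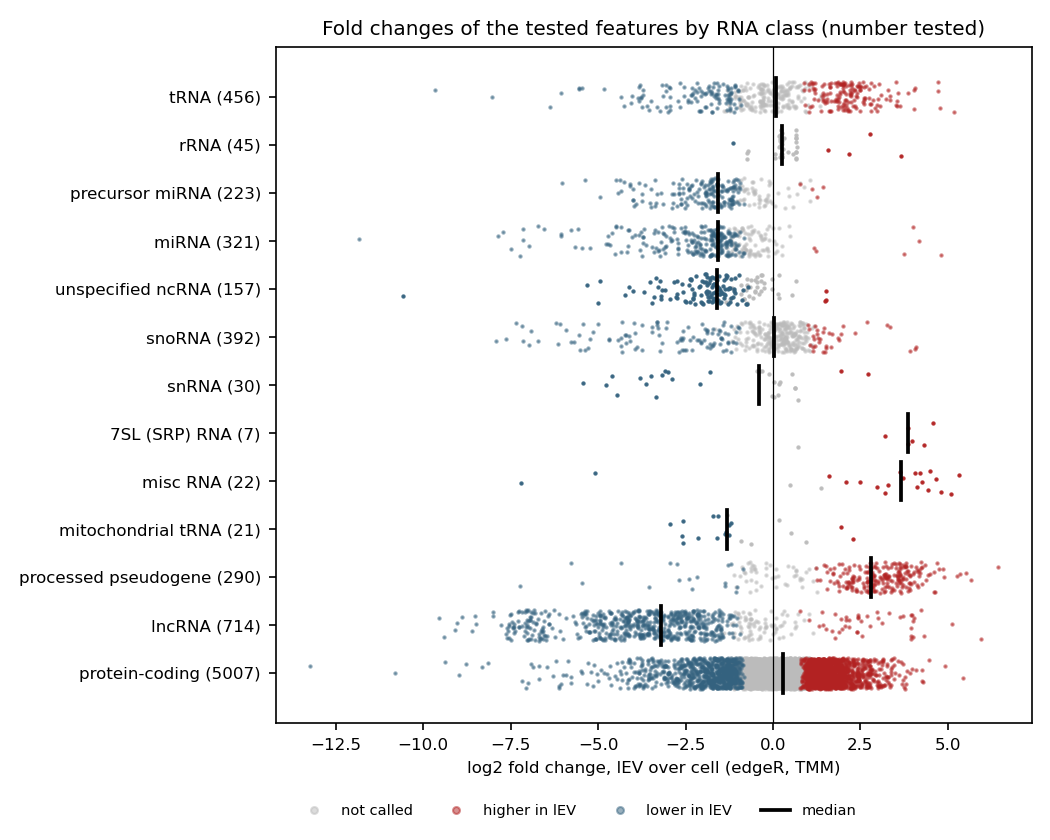
Log2 fold change, lEV over cell, of each tested feature in 13 RNA classes (number tested in brackets), with red points higher in lEV, blue points lower in lEV, grey points not called and a black bar at the class median. The precursor miRNA, miRNA and unspecified ncRNA classes centre near -1.6, 7SL and misc RNA lie mostly to the right, and tRNA spreads to both sides of a median of 0.09.

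In rRNA, 4 of 45 tested features were higher in lEV and 1 lower. The 4 that rose are among the 5 tested RNAcentral entries, and none of the 40 tested Ensembl rRNA features was called higher. These counts of features are not independent, since the 39 rRNA entries with a mean of at least 50 CPM formed only 7 groups with distinct counts. Ensembl rRNA features summed to 84223 to 133420 CPM in lEV and 43767 to 84939 CPM in cells. The entry URS0002340650 had 18111, 29471 and 23016 CPM in lEV, against 1808, 1512, 2191 and 1422 CPM in cells, a log2 fold change of 3.67 ± 0.31 with an edgeR adjusted p of 9.2e-07. The most abundant named rRNA gene, RNA5-8SN2, which encodes 5.8S rRNA, had 13132, 10071 and 8152 CPM in lEV, against 8336, 5228, 6689 and 4117 CPM in cells. Near-identical copies carry the same symbol and share its reads. The groups overlapped, and the gene was not called (log2 fold change 0.67 ± 0.32, adjusted p = 0.09), though it was called without cell replicate 1, at 0.99. Its call also depended on scaling. It was called higher with library totals in place of TMM (0.78). The same held with scaling set on the 1164 features of at least 10 CPM in 3 libraries (1.73).

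A group of annotated lncRNA loci that overlap rRNA genes rose with the rRNA entry. FP236383.2 had 1473, 1484 and 1452 CPM in lEV, against 73.1, 76.1, 122 and 84.2 CPM in cells, and its log2 fold change was 3.95 ± 0.33 with an edgeR adjusted p of 9.2e-07. It lies at chr21:8393419-8394341 (GRCh38), where RefSeq places RNA18SN3 and RNA45SN3, the 18S and 45S rRNA genes of one repeat unit. GENCODE 29 puts the lncRNA on the minus strand. Whether counting used strand is not stated, so reads of the rRNA and of the lncRNA cannot be told apart. Its counts matched those of FP236383.3, FP671120.3 and FP671120.4 within 0.2 on the log2 scale in every library, and the 4 may share reads.

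The Y RNAs and 7SL RNA, both cytoplasmic, were higher in lEV. RNY1 had 269, 287 and 369 CPM in lEV, against 66.1, 42.5, 57.1 and 35.5 CPM in cells (log2 fold change 2.49 ± 0.36, edgeR adjusted p = 5.1e-05). RNY4 had 24.5, 30.6 and 44.96 CPM in lEV, against 2.03, 1.07, 1.41 and 1.01 CPM in cells (4.44 ± 0.43, 1.9e-06). RNY3 had 7.68, 6.77 and 7.75 CPM in lEV, against 2.03, 1.23, 1.60 and 1.51 CPM in cells (2.08 ± 0.33, 9.3e-05). Every lEV library lay above every cell library for all 3 genes. Of 56 features with a Y RNA symbol, copies and pseudogenes included, 11 were tested and all 11 were higher in lEV, but only 3 of them passed 0.84 CPM in 3 or more cell libraries, and the rest entered the test through their lEV counts. Over all 56, the summed level was 369 to 573 CPM in lEV and 40.6 to 76.2 CPM in cells.

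Of the 7 entries of 7SL RNA, 6 were higher in lEV, and all 7 passed the minimum in both groups. The most abundant had 481, 521 and 610.5 CPM in lEV, against 27.6, 48.6, 65.0 and 74.3 CPM in cells, a log2 fold change of 3.22 ± 0.38 (edgeR adjusted p = 1e-05). The class median was 3.86. VTRNA1-3, a vault RNA gene, was the only 1 of 4 vault RNA genes tested. It had 1.42, 2.13 and 3.06 CPM in lEV, against 0.435, 0.575, 1.70 and 0.672 CPM in cells, and its call (log2 fold change 1.30 ± 0.45, adjusted p = 0.024) was lost without any 1 of lEV replicate 3, cell replicate 1 and cell replicate 2.

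Spliceosomal snRNA genes fell as a list. All 6 tested of 17 major spliceosome snRNA genes were lower in lEV: RNU4-2, RNU5B-1, RNU4-1, RNU6-9, RNU5F-1 and RNU5D-1. RNU5B-1 had 56.4, 19.0 and 46.1 CPM in lEV, against 426, 166, 402 and 322 CPM in cells, a log2 fold change of -3.17 ± 0.48 (edgeR adjusted p = 7.8e-05). RNU4-2 had 174, 45.5 and 168 CPM in lEV, against 683, 148, 592 and 524 CPM in cells (-2.09 ± 0.55, 0.0045), and its groups overlapped, since lEV replicate 2 and cell replicate 2 were each the lowest of their group. RNU4-1 had 35.9, 15.1 and 40.4 CPM in lEV, against 80.0, 54.4, 127 and 121 CPM in cells (-1.79 ± 0.44, 0.0031). With scaling set on the 1164 features of at least 10 CPM in 3 libraries, RNU4-2 (-0.99) and RNU4-1 (-0.68) were no longer called. RNU6-9 (-3.79 ± 0.57), RNU5F-1 (-3.62 ± 0.56) and RNU5D-1 (-3.09 ± 0.68) were lower at CPM means under 20 in cells. Of the minor spliceosome list, RNU6ATAC had 0, 0.0928 and 0.408 CPM in lEV, against 8.04, 6.90, 6.50 and 4.62 CPM in cells (-5.43 ± 0.59, adjusted p = 5.2e-06). Of the 6 major genes, 3 passed 0.84 CPM in every lEV library and in 3 or more cell libraries, and these 3 were lower.

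**Figure D3:**
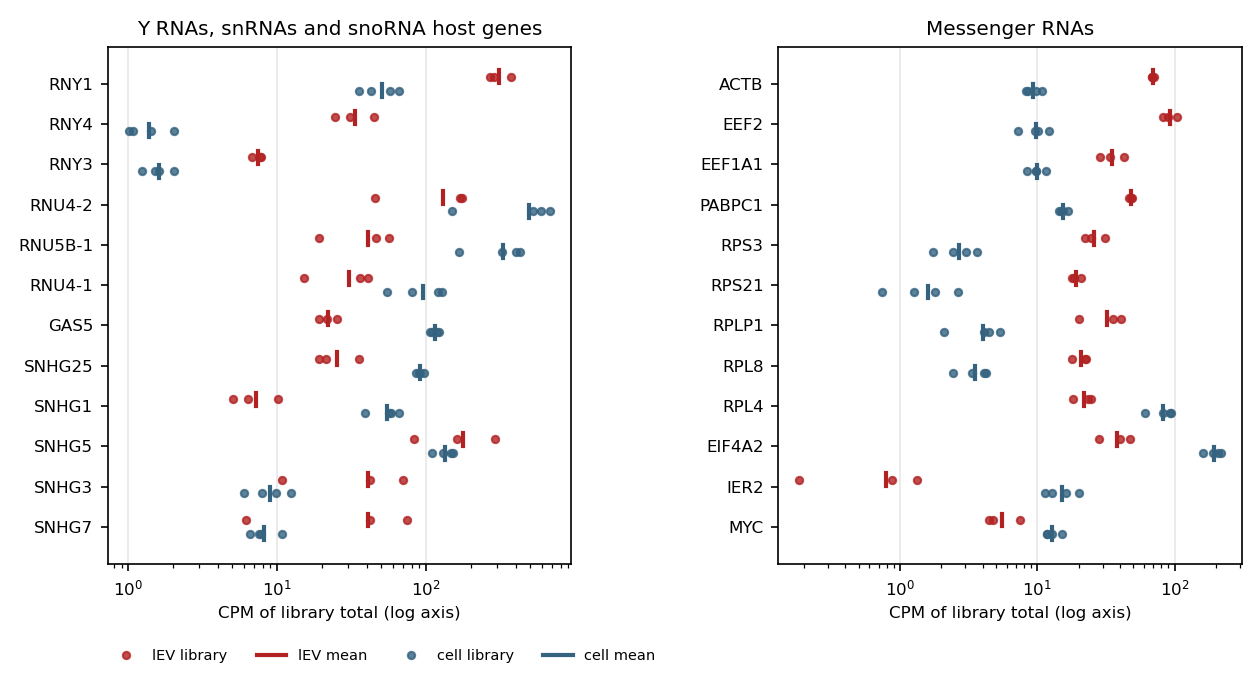
CPM of the library total (log axis) for 12 small RNA and snoRNA host genes (left) and 12 mRNAs (right), with lEV libraries in red above cell libraries in blue and a bar at each mean. RNY1, RNY4 and RNY3 lie to the right in lEV, RNU5B-1, GAS5 and SNHG1 to the left, and ACTB at 67.9 to 70.8 CPM in lEV stands apart from 8.30 to 10.7 CPM in cells.

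Other snRNA features did not follow the genes above. The most abundant RNAcentral snRNA entry had 312, 743 and 2389 CPM in lEV, against 533, 812, 838 and 659.5 CPM in cells, and was not called. RNU2-36P, annotated as a pseudogene of U2 snRNA (chr9:86422938-86423128, minus strand), had 148, 219 and 594 CPM in lEV, against 22.4, 52.3, 78.6 and 27.5 CPM in cells. Its log2 fold change was 2.73 ± 0.48 with an edgeR adjusted p of 0.00025. Both features were highest in lEV replicate 3, and a U2 pseudogene can take reads of U2 itself.

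Nucleolar RNA was lower in lEV by share. Among the third of snoRNA entries with the highest mean CPM, 68 of 131 were lower and 17 higher, with a median log2 fold change of -1.13. Of the 96 of these that passed 0.84 CPM in both groups, 39 were lower and 14 higher, with a median of -0.33, and the others entered the test through 1 group, mostly the cells. Over all 392 tested entries 105 were lower and 34 higher, with a median of 0.04 that was -0.53 without lEV replicate 3 and -0.02 under upper-quartile scaling. The most abundant entry, URS0000830239, had 926, 842 and 1008 CPM in lEV, against 8051, 8614, 8255 and 7405 CPM in cells, a log2 fold change of -3.24 ± 0.30 (edgeR adjusted p = 1.3e-06). The next had 578, 614 and 594 CPM in lEV, against 6784, 5128, 5942 and 4128 CPM in cells (-3.32 ± 0.33). These 2 entries held much of the snoRNA counts in cells, where the class summed to 17552 to 22609 CPM, against 3582 to 5652 CPM in lEV. Of 16 tested C/D snoRNA genes, which guide methylation, 8 were lower and 1 higher, but only 7 passed 0.84 CPM in both groups, of which 2 were lower and 1 higher. Of 21 tested H/ACA snoRNA genes, which guide pseudouridylation, 12 were lower and 3 higher, and of the 15 that passed in both groups 9 were lower and 2 higher. SNORA74A had 6.65, 8.998 and 10.9 CPM in lEV, against 42.1, 41.3, 42.8 and 49.95 CPM in cells (-2.43 ± 0.38), and SNORD66 had 1.98, 2.13 and 4.996 CPM in lEV, against 15.7, 17.6, 18.1 and 13.4 CPM in cells (-2.55 ± 0.41). SNORA53 went the other way, with 7.44, 18.3 and 44.6 CPM in lEV, against 6.96, 3.45, 6.03 and 4.37 CPM in cells (2.0 ± 0.49). SNORD14E, the most abundant snoRNA gene with a symbol, had 38.7, 78.6 and 116 CPM in lEV, against 105, 135, 158 and 101 CPM in cells, and was not called (-0.79 ± 0.39). None of the 4 tested scaRNA genes was called, SCARNA6 among them (1.03 ± 0.59).

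Genes that host snoRNAs in their introns split by class, lncRNA against protein-coding. Of 20 tested genes on the host list, most of them lncRNAs, 13 were lower in lEV and 2 higher, with a median of -1.71. Among the 19 lncRNAs on it 12 were lower and 2 higher (median -1.76). Over all 714 tested lncRNA features 593 were lower and 44 higher (median -3.20). Of the 15 listed lncRNAs that passed 0.84 CPM in both groups, 9 were lower and 2 higher (median -1.67). Of all 110 lncRNA features that passed, 58 were lower and 23 higher (median -1.08). Of 172 tested protein-coding genes with a snoRNA gene inside, 66 were higher and 21 lower, with a median of 0.55, against 1207 higher and 756 lower of 4667 without one (median 0.26). These differences were not tested. GAS5, which RefSeq places over 10 C/D snoRNA genes, had 19.1, 21.5 and 25.1 CPM in lEV, against 107, 119, 123 and 110 CPM in cells, a log2 fold change of -2.49 ± 0.36 (edgeR adjusted p = 5.1e-05). SNHG25 had 21.3, 19.2 and 35.3 CPM in lEV, against 85.0, 91.1, 97.1 and 90.2 CPM in cells (-1.97 ± 0.37), and SNHG1 had 5.06, 6.40 and 10.1 CPM in lEV, against 57.7, 65.3, 56.5 and 38.9 CPM in cells (-3.04 ± 0.41). SNHG3 (2.06 ± 0.49) and SNHG7 (2.18 ± 0.55) were the 2 that rose. SNHG7 had 6.17, 41.7 and 74.0 CPM in lEV, against 7.75, 7.56, 10.8 and 6.55 CPM in cells, so lEV replicate 1 lay below every cell library. SNHG5 had 82.7, 162 and 288 CPM in lEV, against 129, 146, 152 and 110 CPM in cells, and was not called. A read on a host gene may stem from the snoRNA inside it, and the deposited counts do not separate them.

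The precursor miRNA, mature miRNA and unspecified ncRNA classes fell together. Whether the unspecified ncRNA entries are related to miRNA was not tested. Of 223 tested precursor entries 166 were lower and 4 higher, of 321 mature miRNA features 233 were lower and 6 higher, and of 157 unspecified ncRNA entries 119 were lower and 3 higher. Their median log2 fold changes were -1.58, -1.58 and -1.61. Together these 3 classes held 25.7 ± 5.25% of lEV counts and 71.3 ± 2.25% of cell counts. The classes are not independent, since 22 groups of entries with matching counts held members of different classes among them. The most abundant precursor entry had 71008, 36087 and 50023 CPM in lEV, against 170215, 157852, 135811 and 119177 CPM in cells, a log2 fold change of -1.59 ± 0.28 (edgeR adjusted p = 0.00025). When scaling was set on the 1164 features with at least 10 CPM in 3 libraries, all fold changes shifted by a median of 1.09, the class medians became -0.61, -0.60 and -0.67, and this entry was not called at -0.53. The shares of counts do not depend on that scaling.

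Named miRNA genes held little of the class. MIR4420 had 0.0791, 0.186 and 0.102 CPM in lEV, against 22.4, 22.7, 18.6 and 10.7 CPM in cells, a log2 fold change of -7.24 ± 0.59 (edgeR adjusted p = 9.2e-07). MIR15B had 0.475, 0.278 and 0.306 CPM in lEV, against 9.28, 9.78, 8.01 and 4.03 CPM in cells (-4.49 ± 0.47, 3.3e-06). MIR1226 had 52.3, 7.14 and 7.95 CPM in lEV, against 102, 73.9, 64.2 and 104 CPM in cells (-2.06 ± 0.62, 0.011), with lEV replicate 1 nearest to the cells and the call lost without lEV replicate 2. MIR7977 had 71.9, 19.6 and 19.1 CPM in lEV, against 62.5, 89.8, 95.5 and 78.7 CPM in cells (-1.23 ± 0.47, 0.037). Its groups overlapped, and its call was lost without lEV replicate 2 or 3 or any 1 cell library. MIR6087 was the Ensembl miRNA gene that rose, with 4.04, 2.04 and 5.71 CPM in lEV, against 0.0725, 0.164, 0.377 and 0.168 CPM in cells (4.19 ± 0.50). MIR17HG, the host transcript of the miR-17-92 cluster shown above, had 6.09, 2.60 and 4.28 CPM in lEV, against 53.0, 89.5, 63.0 and 83.7 CPM in cells (-4.16 ± 0.45).

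Mitochondrial RNA split by kind. Of 21 tested mitochondrial tRNA genes 13 were lower in lEV and 2 higher, while of 13 mitochondrial mRNAs 2 were lower and none higher. MT-TN, the asparagine tRNA, had 40.9, 26.3 and 36.0 CPM in lEV, against 332, 235, 348 and 74.6 CPM in cells (log2 fold change -2.95 ± 0.50, edgeR adjusted p = 0.00016). MT-TE, the glutamate tRNA, had 35.9, 15.0 and 12.7 CPM in lEV, against 163, 84.8, 155 and 65.4 CPM in cells (-2.57 ± 0.50). MT-TY, the tyrosine tRNA, had 27.1, 42.6 and 21.1 CPM in lEV, against 9.28, 7.15, 8.58 and 4.53 CPM in cells (1.95 ± 0.40), and MT-TR, the arginine tRNA, had 5.86, 6.31 and 2.45 CPM in lEV, against 1.01, 0.740, 1.41 and 0.588 CPM in cells (2.30 ± 0.42). The groups did not overlap for these 4 tRNAs. MT-TN and MT-TE were named by abundance. So was MT-TV, described below, which was more abundant than MT-TE, fell less and is not shown. The sequences are of the pair MT-TN and MT-TE, which fell, and of the 2 that rose, chosen after their values were seen (GRCh38, MT-TN chrM:5657-5729, MT-TE chrM:14674-14742 and MT-TY chrM:5826-5891 on the minus strand, MT-TR chrM:10405-10469 on the plus strand).
MT-TN: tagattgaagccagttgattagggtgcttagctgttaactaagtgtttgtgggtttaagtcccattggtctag
MT-TE: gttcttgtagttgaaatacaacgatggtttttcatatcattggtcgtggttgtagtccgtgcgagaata
MT-TY: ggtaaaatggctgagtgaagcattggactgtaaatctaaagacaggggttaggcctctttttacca
MT-TR: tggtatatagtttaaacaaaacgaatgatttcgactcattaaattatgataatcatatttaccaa

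The mitochondrial rRNA genes MT-RNR1 (-3.32 ± 0.38) and MT-RNR2 (-1.96 ± 0.40) were lower in lEV, with 1.66 to 1.84 and 3.16 to 5.46 CPM in lEV, against 13.1 to 19.6 and 9.49 to 19.7 CPM in cells. The 2 mitochondrial mRNAs called lower were MT-CYB (-1.07 ± 0.37) and MT-ND2 (-1.24 ± 0.42), and both calls were lost without lEV replicate 3 or without cell replicate 1, that of MT-ND2 also without cell replicate 3. The median of the 13 mRNAs was -0.37, and 0.70 with scaling set on the 1164 abundant features. MT-TV, the valine tRNA, had 65.1, 66.6 and 38.3 CPM in lEV, against 125, 116, 143 and 104 CPM in cells (-1.19 ± 0.37), and its call was lost without lEV replicate 3. MT-ND1 had 194, 484 and 225 CPM in lEV, against 330, 320, 399 and 143 CPM in cells, and MT-CO2 had 346, 430 and 176 CPM in lEV, against 240, 180, 233 and 83.9 CPM in cells. Both overlapped between groups and were not called, nor were MT-ND5 (-0.37 ± 0.42) and MT-CO3 (-0.40 ± 0.41).

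Messenger RNA fragments of the translation machinery and the cytoskeleton rose, at low levels. Of 44 tested large-subunit ribosomal protein mRNAs 28 were higher in lEV and 5 lower (median log2 fold change 1.26), and of 29 small-subunit mRNAs 20 were higher and 3 lower (median 1.73), against 23.8% higher over all features. RPS3 had 31.1, 22.3 and 24.7 CPM in lEV, against 1.74, 3.62, 2.45 and 3.02 CPM in cells (3.17 ± 0.37, edgeR adjusted p = 9.3e-06). RPS21 had 21.0, 17.9 and 18.7 CPM in lEV, against 1.81, 0.740, 2.64 and 1.26 CPM in cells (3.46 ± 0.41). RPLP1 (2.88 ± 0.41) and RPL8 (2.45 ± 0.36) of the large subunit also rose. RPLP1 had 20.1, 35.4 and 40.8 CPM in lEV, against 5.36, 4.11, 4.43 and 2.10 CPM in cells.

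Of 29 ribosomal protein genes with a snoRNA gene inside 17 were higher and 5 lower (median 1.03), and of 44 without one 31 were higher and 3 lower (median 1.54). This split was made after the values were seen and the difference was not tested. RPS3, described above as higher, holds SNORD15A and SNORD15B. RPL4, which holds SNORD16 and 3 SNORD18 genes, had 24.5, 18.2 and 23.6 CPM in lEV, against 61.3, 91.7, 82.5 and 93.9 CPM in cells (-2.0 ± 0.36, edgeR adjusted p = 0.0003). RPL7A (-1.95 ± 0.36) and RPS13 (-1.31 ± 0.37), which also hold snoRNA genes, were lower as well, and so was RPL34 (-2.44 ± 0.41), in which the annotations used place none. Among translation factors 9 of 13 were higher and 2 lower. EEF2, the elongation factor of ribosome translocation, which holds SNORD37, had 105, 82.9 and 89.7 CPM in lEV, against 10.1, 7.23, 12.2 and 9.65 CPM in cells (3.13 ± 0.37, adjusted p = 1e-05). EEF1A1 (1.72 ± 0.34) and PABPC1 (1.53 ± 0.34) rose too. EIF4A2, which holds SNORD2 and several SNORA genes, had 46.9, 28.1 and 39.8 CPM in lEV, against 161, 191, 217 and 205 CPM in cells (-2.45 ± 0.36).

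**Figure D4:**
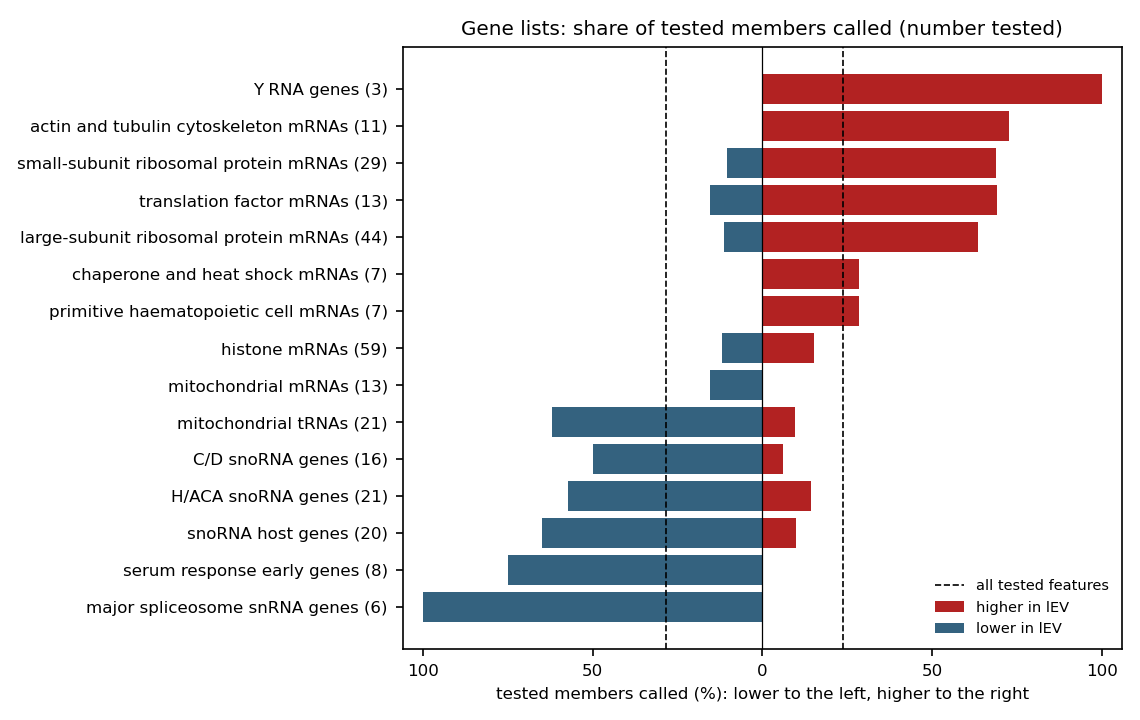
Share of the tested members of 15 gene lists (number tested in brackets) called higher in lEV (red, to the right) or lower in lEV (blue, to the left), with dashed lines at the shares over all tested features, 23.8% higher and 28.5% lower. Y RNA genes, actin and tubulin and ribosomal protein lists extend to the right, and snRNA, serum response and snoRNA lists to the left. Bars count all tested members, including those that entered the test through 1 group only. Those that passed 0.84 CPM in both groups were 7 of 16 C/D snoRNA, 3 of 8 serum response and 3 of 6 major snRNA genes. Of these 2, 2 and 3 were lower, and 1, 0 and 0 higher.

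Actin and tubulin cytoskeleton mRNAs were higher in 8 of 11 tested, with none lower and a median of 2.08. Of the 8 that passed 0.84 CPM in both groups 5 were higher (median 1.74), and the other 3 entered the test through their lEV counts. ACTB, cytoplasmic actin, had 67.9, 68.6 and 70.8 CPM in lEV, against 8.55, 8.30, 9.80 and 10.7 CPM in cells (log2 fold change 2.77 ± 0.35, edgeR adjusted p = 1.8e-05). ACTG1 (2.61 ± 0.34), the actin-severing factor CFL1 (2.19 ± 0.37) and the actin-binding peptide TMSB4X (2.66 ± 0.35) also rose. Of the chaperone list HSP90AB1 (1.21 ± 0.33) and HSPA5 (0.98 ± 0.36) rose among 7 tested (28.6%, against 23.8% over all tested features). The other 5 were not called. Among these was HSPA8, the most abundant protein-coding gene and a host of SNORD14E (-0.20 ± 0.43). It had 246, 933 and 1474 CPM in lEV, against 795, 1026, 1098 and 838 CPM in cells. HSPA5 lost its call without lEV replicate 2 or 3 or without cell replicate 1 or 3. Of 59 tested histone mRNAs 9 were higher and 7 lower, both shares below those over all features. HIST1H1B (1.60 ± 0.35) was higher, and HIST2H2BE (-1.35 ± 0.37) was lower, its call lost without lEV replicate 2.

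Early genes that serum induces were lower in lEV, whose donor cells had no serum. Of 12 listed genes 8 were tested and 6 were lower, with none higher and a median of -1.96. Only 3 passed 0.84 CPM in both groups, of which 2 were lower, and most of the others entered the test through their cell counts. IER2 had 0.871, 0.186 and 1.33 CPM in lEV, against 16.2, 20.1, 12.7 and 11.3 CPM in cells (-4.36 ± 0.51, edgeR adjusted p = 1e-05). MYC had 4.75, 4.45 and 7.44 CPM in lEV, against 11.8, 15.0, 12.7 and 11.8 CPM in cells (-1.33 ± 0.34), a call lost at -0.22 with scaling on the abundant features. EGR2 (-3.58 ± 0.57) and JUNB (-2.29 ± 0.36) were lower too. The list summed to 11.7 to 18.6 CPM in lEV and 49.1 to 65.7 CPM in cells. The part of serum withdrawal in these values was not tested.

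Of the primitive haematopoietic list 2 of 7 tested genes rose (28.6%, against 23.8% over all tested features), and the other 5 were not called. CD34, the surface protein that marks haematopoietic progenitors, had 4.51, 10.6 and 12.2 CPM in lEV, against 2.75, 4.77, 3.11 and 1.18 CPM in cells (1.53 ± 0.41, edgeR adjusted p = 0.0055). SPN, the sialophorin CD43, had 4.91, 9.93 and 12.6 CPM in lEV, against 3.19, 5.67, 3.96 and 2.43 CPM in cells (1.17 ± 0.37, 0.014), with its call lost without lEV replicate 3 or cell replicate 3. For both genes lEV replicate 1 lay within the cell range. None of the red cell and platelet genes was tested, and their sum was at most 0.31 CPM in lEV and 0.76 CPM in cells. Of the plasma proteins HP, haptoglobin, was the only 1 of 9 tested, with 85.2, 110 and 157 CPM in lEV, against 27.0, 16.1, 21.6 and 28.5 CPM in cells (2.19 ± 0.38, 0.00023). ALB and TTR of that list had no count in any of the 7 libraries.

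Processed pseudogenes, retrocopies of mRNAs, rose as a share of counts. Of 290 tested (10235 in the table) 225 were higher and 18 lower, but only 69 passed the minimum in 3 or more cell libraries. Of the 44 that passed it in all lEV and in 3 or more cell libraries, 17 were higher and 6 lower, with a median of 0.41. Copies of ribosomal protein genes summed to 374 to 417 CPM in lEV and 74.4 to 117 CPM in cells over all 1011 in the table. The most abundant, MTND4P12, a copy of a mitochondrial gene, was not called (-0.08 ± 0.42). Short reads can match a gene and its retrocopy alike, so these counts are uncertain between gene and copy.

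Most lncRNA features fell. Of 714 tested 593 were lower and 44 higher, with a median of -3.20, but 676 passed the minimum in 3 or more cell libraries and only 131 in all lEV libraries. Of the 110 that passed in both groups 58 were lower and 23 higher, with a median of -1.08. The unnamed entry ENSG00000287050.2 had 7.52, 8.16 and 8.56 CPM in lEV, against 516, 1214, 1395 and 2773 CPM in cells, a log2 fold change of -7.62 ± 0.61 (edgeR adjusted p = 9.2e-07).

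Of the features with at least 50 CPM and a symbol, ZIM2 showed the largest fall. This zinc finger gene of chromosome 19 (chr19:56774547-56840729) had no count in any lEV library, against 64.9, 199, 124 and 31.99 CPM in cells. With a floor of 3 counts over the lEV group it was at least 1146-fold lower in lEV. ZMYM2, a zinc finger gene of chromosome 13 (chr13:19958670-20091829), had 14.6, 12.5 and 10.8 CPM in lEV, against 1094, 621, 605 and 235 CPM in cells (log2 fold change -5.78 ± 0.56, edgeR adjusted p = 2.1e-06). VMP1, a membrane protein gene of autophagy that holds MIR21 (chr17:59707192-59842255), had 8.47, 6.96 and 7.85 CPM in lEV, against 123, 237, 216 and 163 CPM in cells (-4.65 ± 0.41). AL021155.2, which holds the U5 gene RNU5E-1, had 12.7, 6.49 and 8.05 CPM in lEV, against 99.6, 134, 135 and 108 CPM in cells (-3.81 ± 0.41).

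Several of the loci that fell most hold tRNA genes in RefSeq. AL592295.4 (chr1:161399409-161422424), which overlaps TRV-CAC1-1 and TRE-TTC4-2, had 2.93, 2.78 and 2.45 CPM in lEV, against 82.8, 254, 222 and 441 CPM in cells (log2 fold change -6.61 ± 0.61, edgeR adjusted p = 1.3e-06). SHF and AC051619.7, which both overlap TRH-GTG1-7 on chromosome 15, were lower by log2 fold changes of -6.12 ± 0.59 and -5.14 ± 0.49. C8orf37-AS1 overlaps TRS-AGA2-5 and had a log2 fold change of -5.45 ± 0.55. AL049796.1, which overlaps TRR-TCT1-1, was higher instead, with 140, 178 and 251 CPM in lEV, against 34.1, 39.1, 56.0 and 48.9 CPM in cells (1.98 ± 0.35). Of all 33 tested Ensembl features that hold a RefSeq tRNA gene 14 were lower and 4 higher, with a median of -0.59, but of the 21 that passed 0.84 CPM in both groups 7 were lower and 3 higher, with a median of -0.08. This set was made after the values were seen, and whether the reads are tRNA reads was not tested.

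The remaining loci of the largest changes hold no tRNA, rRNA or snoRNA gene in the annotations used. SLC32A1, the vesicular GABA transporter gene, had 131, 46.6 and 52.0 CPM in lEV, against 416, 986, 1174 and 1733 CPM in cells (log2 fold change -3.91 ± 0.53, edgeR adjusted p = 3.2e-05). NFE4 (-3.81 ± 0.65), CCDC187 (-3.87 ± 0.58) and the lncRNA AC135388.1 (-3.38 ± 0.60) had the same order of libraries, with replicate 1 highest in lEV and, in cells, replicate 1 lowest and replicate 4 highest. That order in cells held for 6 of the 12 named loci that fell most, against 13.3% of all tested features, but also for 8 of the 14 lncRNA features and 7 of the 20 protein-coding features with at least 50 CPM that were called lower. LINC01766 rose, with 771, 948 and 1402 CPM in lEV, against 185, 123, 140 and 203 CPM in cells (2.53 ± 0.35, adjusted p = 3.9e-05).

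Set beside HL60, the direction of most class shares was alike. In HL60 the tRNA share was 57.3 ± 6.06% in lEV and 20.2 ± 0.508% in cells, and the precursor miRNA share was 4.88 ± 2.99% in lEV and 20.7 ± 3.05% in cells (SD, n = 3 each). The rRNA share had the opposite direction there, with 5.83 ± 0.969% in lEV and 13.7 ± 0.974% in cells. The lncRNA share in HL60 was 26.1 ± 3.08% in lEV and 28.2 ± 4.35% in cells. These differences in share between the lines were not tested. Per feature, 58 of 9925 differed between the lines in the lEV against cell contrast (0.584%, edgeR adjusted p under 0.05), 41 with a higher difference in KG1a and 17 with a lower one. The count depended on the method: 501 were called with library totals in place of TMM, and 174 by DESeq2.

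The features that differed between lines included 22 protein-coding genes, 11 tRNA entries and 10 processed pseudogenes. The count was 105 without HL60 lEV replicate 1, and 35, 32, 26 and 38 without KG1a lEV replicate 2, KG1a cell replicate 2, HL60 cell replicate 2 and HL60 cell replicate 3. RNU2-36P was the 1 feature among them with a symbol and at least 50 CPM. In HL60 it had 64.7, 39.8 and 88.6 CPM in lEV, against 120, 115 and 278 CPM in cells (log2 fold change -0.60 ± 0.53). The difference between the lines was 3.39 ± 0.74 on the log2 scale (edgeR adjusted p = 0.024). Features without a symbol among them included 2 described above. The snoRNA entry URS0000830239 had log2 fold changes of -3.24 in KG1a and -0.56 in HL60, where it was not called (difference -2.55 ± 0.58, edgeR adjusted p = 0.034). The lncRNA ENSG00000287050.2 had -7.62 in KG1a and -3.84 in HL60, lower in lEV in both (difference -3.67 ± 0.75, edgeR adjusted p = 0.014).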

How the data were processed

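Small RNA libraries of KG1a lEV and cells, and of HL60 lEV and cells for the comparison between lines, were analysed from 1 table of read counts per feature that the authors deposited. The submitters' processing notes name Bowtie2 and the GRCh38 (hg38) build. Versions, the counting program, the treatment of multiply mapped reads, strand use and the annotation release are not given in the sources used here, and reads of near-identical or overlapping genes may be split or counted more than once. The table has 90127 features (86401 Ensembl, 3726 RNAcentral), and 46176 had a count in the 7 libraries. GENCODE 29 gave symbols and GRCh38 coordinates, and RefSeq (GRCh38.p14) gave mature miRNAs and overlapping tRNA, rRNA and snoRNA genes. RNAcentral entries are described by class.

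Features were tested with edgeR 4.0.16 (R 4.3.3): TMM scaling, filterByExpr (about 0.84 CPM in 3 libraries), robust quasi-likelihood fit of the 7 libraries alone and Benjamini-Hochberg adjustment over 7780 features, called at an adjusted p under 0.05. Values after ± are SD for CPM and shares and SE for log2 fold changes, lEV over cell. CPM is per library total, so its ratios can differ from fold changes after TMM. Shares of counts (pandas 2.3.3, Python 3.11.15) were tested with a two-sided exact permutation test over 35 orders. The difference between lines was an interaction contrast over 13 libraries. On simulated counts for 6248 features, the fit recovered 12.2% of features changed by 1 and 81.8% of those changed by 2 on the log2 scale, with 3 false calls. The simulation took its means from the cell libraries and changed 100 features by each amount, equally up and down. The percentages recovered are of those changed features that the filter kept, so they are lower over all that were changed. In the data 52.3% of features were called and whole classes shifted, so the simulation cannot give the number of false calls there.

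Named features were the 12 largest changes each way among called features with a symbol, no overlap between groups and a mean of at least 50 CPM (6 qualified as higher), 1 per group of features with matching counts; the most abundant named feature of each class; and up to 4 members of each list with at least 50 CPM. Other features in the text were chosen after their values were seen. The members and lists were chosen with earlier results of these data known. Alternatives were other scaling, filters, DESeq2 1.42.0, annotation subsets, a replicate block and leaving out each library. An alternative without the most abundant lncRNA entry was chosen after seeing the data. Library depth of 9808448 to 13799469 counts limits low features, and PCR reads are not independent molecules. Some sequences are not reported here.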

Additional observations from a re-analysis of the deposited data

Results flagged for a closer look

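RNA5-8SP2, a 5.8S rRNA pseudogene, had 122, 122 and 137 CPM in lEV, against 91.7, 254, 253 and 238 CPM in cells. Cell replicate 1 stood apart from the other cell libraries, with a gap of 0.904 of the group's range. The gene was not called (log2 fold change -0.80 ± 0.37), and without cell replicate 1 it was called lower in lEV at -0.98. RNU6-9 in cell replicate 2 (29.1 CPM, against 14.4 to 16.5 CPM in the other cell libraries, gap 0.859) and HSP90AB1 in cell replicate 3 (7.54 CPM, against 6.04 to 6.25 CPM, gap 0.865) stood apart as well. Of 107 values looked at in this way in the cell group 3 stood apart, and chance gives about 1 in 20.

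RNU2-36P moved differently in the 2 lines, by 3.39 ± 0.74 on the log2 scale (edgeR adjusted p = 0.024). The values per library are given above, and lEV replicate 3 of KG1a was the highest at 594 CPM.

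The rRNA share of counts was higher in every KG1a lEV library than in every KG1a cell library, and lower in every HL60 lEV library than in every HL60 cell library, by a mean of -7.83 points in HL60. This difference between lines was not tested.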

How the results depend on the processing

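The number of features called was 4067, and 18 of 20 alternatives gave a count within 1.5 times of it. Without a count filter 6107 were called, and with at least 10 CPM in 3 libraries 757 of 1164 tested. Leaving out 1 library gave 3109 to 4524, DESeq2 gave 5034, and a replicate block gave 3806. Same-numbered lEV and cell libraries deviated with correlations of -0.072, 0.057 and 0.050, so the numbers were not taken as pairs. Library totals in place of TMM shifted fold changes by a median of 0.10, and scaling on the 1164 abundant features by 1.09. No feature was called in opposite directions. Of the class and list medians, that of unprocessed pseudogenes reversed, to 0.91, on the 1164 features. For named features 2111 alternative values kept their call and direction, 56 lost and 15 gained a call, and MT-CYB reversed, to 0.012, on the 1164 features.

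With tRNA left out of the totals the protein-coding share difference reversed, to 0.711 points. With shares taken of the counts on Ensembl features alone, the rRNA difference reversed, to -7.47 points. In the same setting 4 differences no longer passed: lncRNA at 19.4, miRNA at -0.255, processed pseudogenes at 0.163 and snoRNA at -0.351 points. The rRNA pseudogene difference passed when rRNA (0.0428 points), tRNA (0.0941) or the most abundant lncRNA entry (0.0427) was left out. The causes were not tested. The difference between lines had 58 features, 501 with library totals in place of TMM (a median shift of 0.78), 174 by DESeq2, 50 with a replicate block within line and 26 to 105 when 1 library was left out.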
